A study of Mus musculus with 28 samples.

Results

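The 8 genes described here are *Neurog1*, *Neurog2*, *Neurog3*, *Neurod1*, *Atoh1*, *Olig1* and *Olig2*, which encode proneural and oligodendrocyte basic helix-loop-helix (bHLH) transcription factors, and *Sox1*, a SoxB1 factor of the early neural plate. They were taken by name, as a group chosen with earlier results of these data known, from the 22368 protein-coding genes of the mouse mm9 genome that entered the analysis. GENCODE vM1, the annotation of that build used here, lists 7 of the 8. *Sox1* is not listed in it, and was placed on mm9 by its RefSeq promoter, which matched the genome at 1 position. The cells were *Brg1*f/f; *Actin-CreER* mouse embryonic stem cells that had been aggregated and differentiated to mesoderm with VEGF, Activin A and BMP4 until day 4. From the second day the cultures received either 200 nM 4-hydroxytamoxifen (4-OHT) in tetrahydrofuran (THF), which lets CreER delete *Brg1*, or THF alone (control), so that both conditions carried the floxed alleles and the Cre transgene. The ubiquitous Cre line means that deletion was not restricted to any one cell type of the culture, and the regions are averages over all cells present. The number of independent stem cell clones is not given in the sources used here. ChIP-seq was available for the repressive mark H3K27me3 in 3 control and 3 4-OHT replicates, for Suz12 in 2 and 2, for the active mark H3K27ac in 2 and 2, and for FLAG-tagged Brg1 in 3 replicates without a 4-OHT arm. The labels give the FLAG cells the same genotype, whereas the study's text describes stem cells with a *Brg1*-FLAG allele. That text also describes FLAG duplicates, whereas all 3 FLAG lists were used here.

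Brg1 is the catalytic ATPase of the BAF chromatin remodelling complexes, which move and evict nucleosomes. Polycomb repressive complex 2, of which Suz12 is a core subunit, writes H3K27me3, and this mark covers the CpG-rich promoters of developmental regulators in cells where they are silent. The neurogenins and *Atoh1* commit progenitors to neuronal fates, *Neurog3* also to endocrine pancreas, *Neurod1* drives neuronal and endocrine differentiation, and *Olig1* and *Olig2* act in oligodendrocyte and motor neuron lineages. In mesoderm these genes of other lineages are normally off.

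Each list holds the positions of enriched regions in 1 replicate, called over input at 1e-12 for the histone marks and Suz12 and at 1e-06 for FLAG, and holds no score, so the measured value is the length covered by regions in a window, in bp, and read depth is unknown. The 6 H3K27me3 lists cover 4.74 to 11.01 Mb, and the sum over the 4-OHT lists was 0.726 times that over the control lists. FLAG replicate 3 holds 192 regions against 8021 and 8257 in replicates 1 and 2. The H3K27me3 lists of replicate number 1, in both conditions, hold more and narrower regions, with a median width of 250 bp, than the other lists, whose median width was 350 to 425 bp, so results that rest on them are also given without them. As a check of the culture, 6 of 7 mesoderm marker genes (*T*, *Mixl1*, *Eomes*, *Mesp1*, *Evx1* and *Pdgfra*, not *Kdr*) and 3 of 3 pluripotency genes had H3K27ac within 5 kb of the transcription start site (TSS) in at least 1 control list, as had 4 of 4 housekeeping genes and 1 of 4 other neural genes (*Nes*).

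The sequences below belong to the 4 positions near these genes where an active mark or FLAG was called in more than 1 list, and to 3 promoters. These promoters lay wholly inside Suz12 regions, to 500 bp on each side of the TSS, in all 4 Suz12 lists. Capitals mark CG dinucleotides, the sequence feature with which Polycomb domains are known to coincide. The coordinates are those of mm9.
Neurod1 coding exon, H3K27ac in both 4-OHT lists (chr2:79294626-79294925, minus strand): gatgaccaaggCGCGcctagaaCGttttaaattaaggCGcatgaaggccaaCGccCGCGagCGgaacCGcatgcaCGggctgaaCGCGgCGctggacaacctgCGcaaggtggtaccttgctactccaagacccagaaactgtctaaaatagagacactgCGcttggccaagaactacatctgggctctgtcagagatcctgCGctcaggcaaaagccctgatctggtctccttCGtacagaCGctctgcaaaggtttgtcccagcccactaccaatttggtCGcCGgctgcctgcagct
Sox1 distal region, H3K27ac in both control lists (chr8:12439426-12439625, plus strand): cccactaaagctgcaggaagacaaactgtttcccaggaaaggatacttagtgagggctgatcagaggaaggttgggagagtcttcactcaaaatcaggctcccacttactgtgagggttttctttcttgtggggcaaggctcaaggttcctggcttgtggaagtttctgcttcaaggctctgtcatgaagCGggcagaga
Olig1 and Olig2 distal region, H3K27ac in all 4 lists, central part (chr16:91256276-91256475, plus strand): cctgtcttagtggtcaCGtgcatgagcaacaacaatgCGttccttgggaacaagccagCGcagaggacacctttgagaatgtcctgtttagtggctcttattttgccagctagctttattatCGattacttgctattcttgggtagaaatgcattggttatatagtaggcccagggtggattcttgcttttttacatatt
Neurog1 distal region, FLAG in replicates 1 and 2 (chr13:56311451-56311525, plus strand): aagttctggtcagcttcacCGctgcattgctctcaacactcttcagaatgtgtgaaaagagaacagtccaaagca
Sox1 promoter, before the TSS (chr8:12395319-12395518, plus strand): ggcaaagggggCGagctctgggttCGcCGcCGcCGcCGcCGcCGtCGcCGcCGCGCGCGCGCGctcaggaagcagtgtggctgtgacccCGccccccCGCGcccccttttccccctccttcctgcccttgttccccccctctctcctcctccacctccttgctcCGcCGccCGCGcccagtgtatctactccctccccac
Neurog2 promoter, before the TSS (chr3:127335854-127336053, plus strand): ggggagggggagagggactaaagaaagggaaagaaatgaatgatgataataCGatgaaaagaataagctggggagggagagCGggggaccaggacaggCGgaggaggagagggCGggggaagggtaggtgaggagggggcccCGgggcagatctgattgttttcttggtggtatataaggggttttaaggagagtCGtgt
Neurog3 promoter, before the TSS (chr10:61595638-61595837, plus strand): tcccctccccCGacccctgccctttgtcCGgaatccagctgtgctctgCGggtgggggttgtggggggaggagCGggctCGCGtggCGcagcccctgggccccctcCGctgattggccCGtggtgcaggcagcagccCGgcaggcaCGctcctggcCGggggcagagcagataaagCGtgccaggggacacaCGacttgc

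The *Sox1* promoter stretch held 23 CG dinucleotides in 200 bases and the *Neurog3* stretch 14, whereas the *Neurog2* stretch held 6. The distal *Sox1* and *Neurog1* regions held 1 each. Over the 1 kb around the TSS, the number of CG dinucleotides was 89 at *Neurog1*, 84 at *Neurog2*, 43 at *Neurog3*, 49 at *Neurod1*, 61 at *Atoh1*, 74 at *Olig1*, 62 at *Olig2* and 89 at *Sox1*, against a median of 40.5 over all genes. All 8 genes were above that median, and GC content ranged from 53.7% at *Neurod1*, below the median of 54.8%, to 68.9% at *Neurog1*. The observed to expected ratio of CG dinucleotides was below the all-gene median of 0.549 at *Neurog3* alone, with 0.507. The E-box CANNTG, which reads the same on both strands and is the motif that bHLH factors bind, was searched in the RefSeq promoters of 300 bases around the TSS. It occurred once each at *Neurog1*, *Neurog3* and *Neurod1* and not in the windows of *Neurog2*, *Atoh1*, *Olig2* and *Sox1*, against 72.3% of all 32851 promoters in the table with at least 1 match.

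In control mesoderm these genes were covered by Polycomb marks. H3K27me3 regions were called within 5 kb of the TSS in every control replicate for 7 of the 8 genes, *Olig1* being the exception, against 11.8% of all genes. The same 7 genes had a region in every 4-OHT replicate, against 9.09% of all genes. Suz12 regions were called in both control replicates for 6 of the 8, against 6.04% of all genes, and in both 4-OHT replicates for the same 6, against 7.92%. Of the 7 genes with H3K27me3, 6 also had Suz12, *Neurod1* being the one without, compared with 49.3% of the 2650 genes with H3K27me3 in every control list. H3K27ac was called in both control replicates for 0 of 8 genes, against 47.7% of all genes, and a FLAG region in at least 1 replicate for 0 of 8, against 14.1%.

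**Figure D1:**
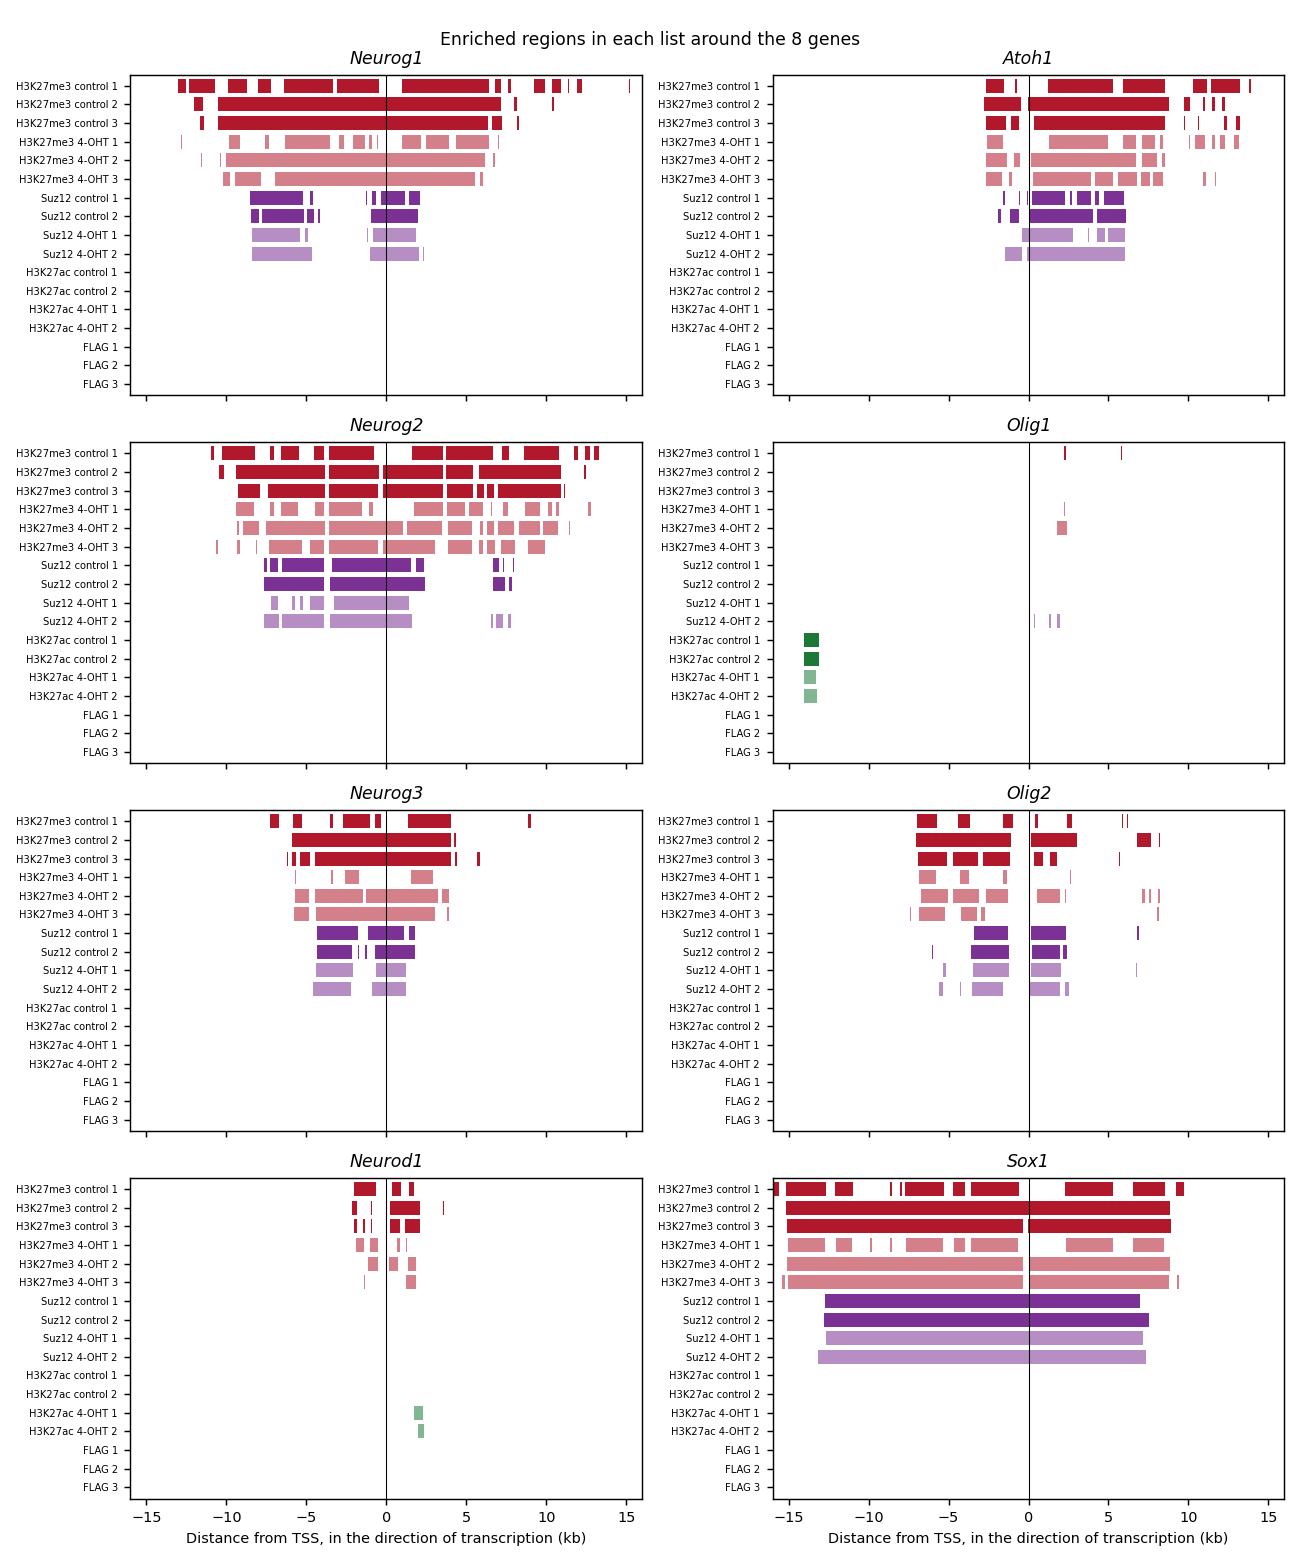
Enriched regions around the TSS of each gene. Each row is 1 list, the horizontal axis is the distance from the TSS in kb in the direction of transcription, dark bars are control and FLAG lists and pale bars 4-OHT lists. H3K27me3 (red) and Suz12 (purple) lie over 6 genes, *Neurod1* has H3K27me3 but no Suz12 and H3K27ac (green) after 4-OHT only, and *Olig1* has neither domain.

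The genes differed in how much of the 10 kb window H3K27me3 covered. In control replicates 1, 2 and 3, the covered length at *Neurog1* (chr13:56351866-56353524, minus strand) was 8325, 10000 and 10000 bp, the last 2 being the whole window. At *Sox1* (chr8:12395519-12399555, plus strand) it was 6418, 10000 and 9650 bp, and at *Neurog2* (chr3:127336054-127338549, plus strand) 6628, 9300 and 9175 bp. At *Neurog3* (chr10:61595838-61597511, plus strand) it was 4975, 9113 and 8913 bp. These 4 genes lay close together, and their replicate ranges overlapped, with replicate 1 lowest at each of them. *Atoh1* (chr6:64679140-64681227, plus strand) followed with 5039, 7364 and 6464 bp, which overlapped the range of *Neurog3*. *Olig2* (chr16:91225795-91228922, plus strand) had 1925, 6756 and 4200 bp, the widest spread, overlapping both its neighbours in the order. *Neurod1* (chr2:79292678-79296908, minus strand) had 2250, 2325 and 1900 bp. *Olig1* (chr16:91270014-91272184, plus strand) stood below all others, with 225, 0 and 0 bp, although its TSS lies 44219 bp from that of *Olig2*. So within the *Olig* pair the mark lay on *Olig2* and hardly at all on *Olig1*.

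The widest single domain lay on *Sox1*. In control replicate 2, 1 unbroken H3K27me3 region of 24025 bp had its edges at -15168 and 8857 bp from the TSS. *Neurog1* had 1 region of 17675 bp in that list and 1 of 16875 bp in control replicate 3. The whole 10 kb window was covered by H3K27me3 in 60 genes in control replicate 2, *Neurog1* and *Sox1* among them, and in 43 genes in control replicate 3, *Neurog1* among them. At *Neurog3* the widest control region was 9900 bp, at *Atoh1* 8775 bp, at *Olig2* 5925 bp, at *Neurog2* 5525 bp, and at *Neurod1* 1925 bp. At *Neurog2* the mark was divided into 4 regions within 5 kb of the TSS in each control list. *Sox1* also had a separate domain downstream, which in control replicate 2 was 1 region of 5650 bp starting 31932 bp after the TSS, with Suz12 regions of 1975 and 1875 bp in control replicates 1 and 2 inside it. The protein-coding gene Gm5607, whose TSS lies at -9748 bp from that of *Sox1*, spans *Sox1* on the same strand. The protein-coding gene 2010107G23Rik spans *Neurog3* on the opposite strand. Regions over *Sox1* and *Neurog3* therefore cannot be assigned to a single gene from position alone.

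Suz12 lay at or beside the TSS. Of the 8 TSSs, 4 were inside a Suz12 region in each control list (*Neurog1*, *Neurog2*, *Neurog3* and *Sox1*), and 5 in each 4-OHT list, *Atoh1* being the addition. In control cells 100% of the Suz12 stretch called in both replicates of *Neurog1* and *Neurog3* lay inside H3K27me3 called in at least 2 of 3 replicates, and 95.8% at *Neurog2*, 95.7% at *Atoh1*, 96.5% at *Sox1* and 68.9% at *Olig2*. The reverse share varied more, since 25.5% of the H3K27me3 stretch carried Suz12 at *Neurog1* but 100% at *Sox1*. *Sox1* was 1 of 5 among all genes analysed whose whole 10 kb window was inside Suz12 regions in all 4 lists. Its Suz12 region was 19700 and 20275 bp wide in control replicates 1 and 2 and 19850 and 20500 bp wide in 4-OHT replicates 1 and 2, so the largest Suz12 domain of the group kept its width to within 1 kb.

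The H3K27me3 lists of replicate number 1 left the TSS itself bare. Summed over the 8 genes, the length covered within 500 bp of the TSS was 398, 4937 and 3929 bp in control replicates 1, 2 and 3 and 32, 4289 and 3442 bp in 4-OHT replicates 1, 2 and 3. The corresponding Suz12 sums were 4535 and 4733 bp in the control lists and 5258 and 5119 bp in the 4-OHT lists. No TSS lay inside an H3K27me3 region in either list of number 1, against 5 and 4 in the other control lists and 3 in each of the other 4-OHT lists. The same was seen beyond these genes, since over the 1971 genes with H3K27me3 in all 6 lists the 1 kb around the TSS was covered to 11.6%, 49.8% and 42.8% in the control lists and to 6.96%, 45.3% and 35.0% in the 4-OHT lists. Between 1500 and 4000 bp from the TSS, up to 6 of the 8 genes were covered in control replicate 1 against up to 7 in control replicates 2 and 3. The part of this difference between replicates in the comparison of conditions was not tested, and the values without number 1 are given beside the counts.

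**Figure D2:**
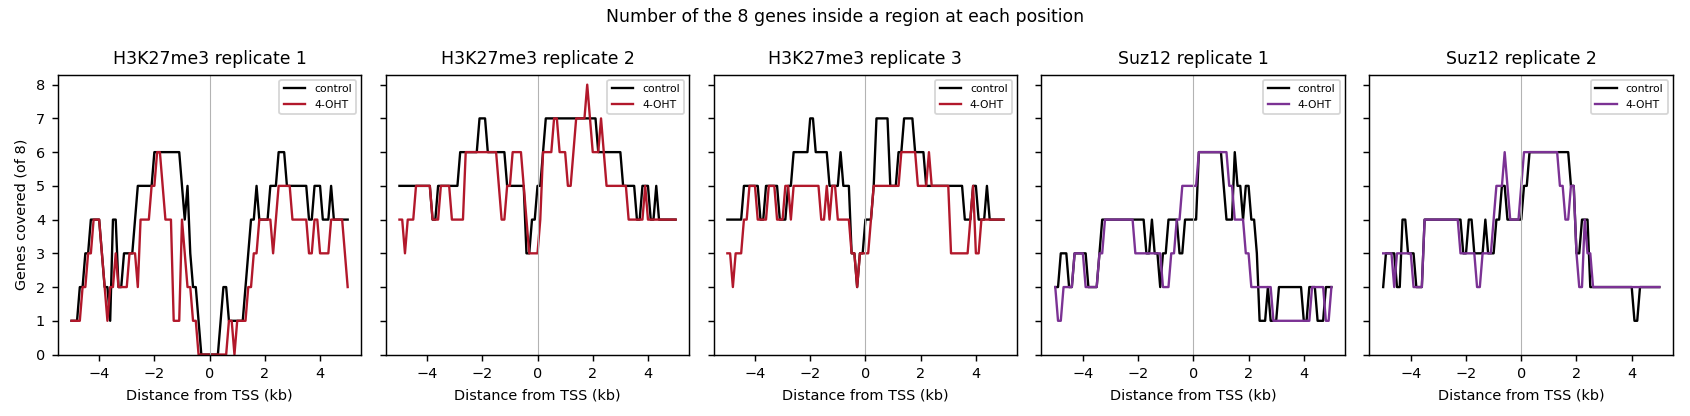
Number of the 8 genes whose position lies inside a region, by distance from the TSS in kb, for each replicate number of H3K27me3 and Suz12, with control in black and 4-OHT in colour. In H3K27me3 replicate 1 the curves fall to 0 at the TSS, in replicates 2 and 3 they dip to 2 or 3 just upstream of it, and the Suz12 curves reach 6 just downstream.

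The first comparison asked whether loss of *Brg1* changed Polycomb coverage at these genes, whose expression was not examined here. After 4-OHT the H3K27me3 domains persisted at the 7 genes, with mean covered lengths of 0.518 to 0.975 times those of the controls. Only *Neurod1* had every 4-OHT replicate below every control replicate, 1 of 8 genes against 12% of the 4205 genes with any H3K27me3 region, and 0 of 8 had every 4-OHT replicate above, against 0.19%. Without control replicate 1 there were 4 such genes (*Neurog2*, *Neurog3*, *Neurod1* and *Sox1*), and without 4-OHT replicate 2 there were 2 (*Neurod1* and *Olig2*). When the covered length was scaled to the total of each list, the difference turned positive for *Neurog1*, *Neurog2*, *Neurog3*, *Atoh1* and *Sox1* and stayed negative for *Neurod1* and *Olig2*. With 3 replicates against 3 the smallest two-sided p of the exact permutation test is 0.1, so no single gene could pass 0.05.

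*Neurod1* and *Olig2*, the genes with the smallest domains among the 7, had the smallest ratios. At *Neurod1*, H3K27me3 covered 2250, 2325 and 1900 bp in the control and 1225, 1750 and 750 bp in the 4-OHT replicates, which do not overlap. The means were 2158 bp ± 227 and 1242 bp ± 500 (SD, n = 3 each), a ratio of 0.575 (two-sided exact permutation p = 0.1). At *Olig2* the control values of 1925, 6756 and 4200 bp were followed by 875, 4525 and 1275 bp after 4-OHT, and each replicate was below its same-numbered control while the groups overlapped. The ratio was 0.518, with means of 4294 bp ± 2417 and 2225 bp ± 2002 (SD, n = 3 each; exact permutation p = 0.3). The share of the *Olig2* Suz12 stretch that lay inside H3K27me3 was 68.9% in control and 7.48% in 4-OHT cells, where the H3K27me3 called in at least 2 of 3 lists was 4575 and 1350 bp.

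The neurogenins and *Atoh1* had larger domains and ratios nearer to 1. At *Neurog3* the 4-OHT replicates had 2500, 8013 and 7788 bp, and the ratio of means was 0.796, 7667 bp ± 2333 in control and 6100 bp ± 3120 after 4-OHT (SD, n = 3 each; exact permutation p = 0.5). At *Atoh1* the 4-OHT values of 4650, 6539 and 5664 bp gave means of 6289 bp ± 1172 and 5618 bp ± 945 (SD, n = 3 each) and a ratio of 0.893 (exact permutation p = 0.5). At *Neurog2* the 4-OHT values were 5825, 9150 and 8378 bp, a ratio of 0.930 (exact permutation p = 0.5). In all 3 of these genes each 4-OHT replicate was lower than its same-numbered control by an amount smaller than the gap between replicate number 1 and the others. At *Neurog1* the 4-OHT replicates had 6050, 10000 and 10000 bp, and the ratio was 0.920 (exact permutation p = 1). There 2 replicates filled the window in both conditions, so they lost no covered length and could not show a gain.

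*Sox1* had the ratio nearest to 1 of the 7. Its 4-OHT replicates had 6268, 9625 and 9525 bp, with means of 8689 bp ± 1975 in control and 8473 bp ± 1910 after 4-OHT (SD, n = 3 each), a ratio of 0.975 (exact permutation p = 0.5). *Olig1* had 75, 650 and 0 bp after 4-OHT, against 225, 0 and 0 bp in control, which overlap (exact permutation p = 0.7).

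**Figure D3:**
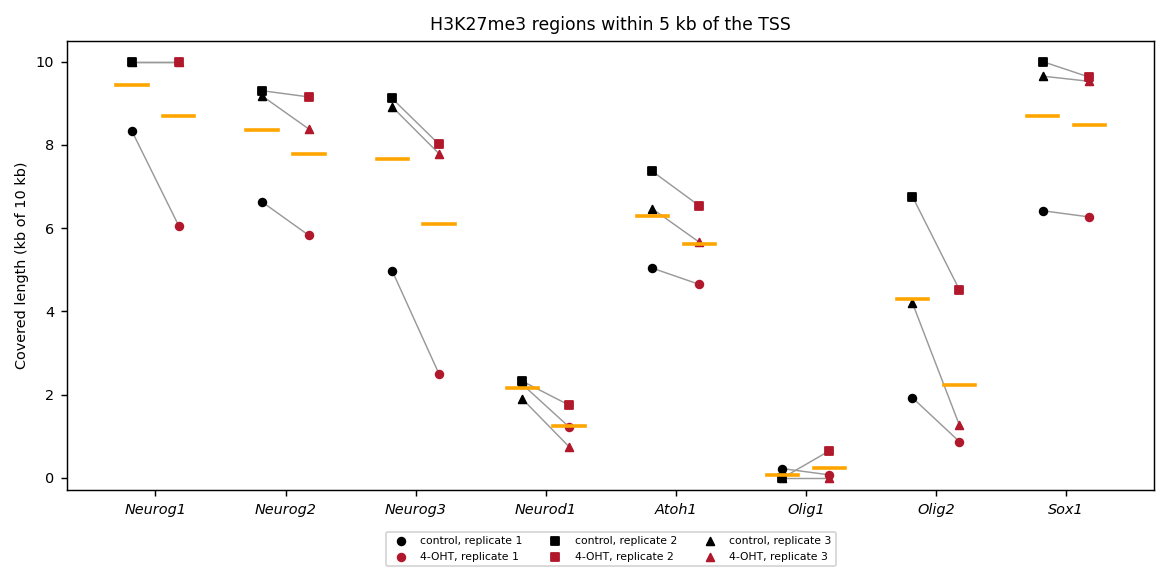
H3K27me3 covered length within 5 kb of the TSS, in kb of the 10 kb window, for each replicate, with lines joining same-numbered replicates and orange bars at the means. Circles (replicate 1) lie lowest at 6 genes in both conditions, lines slope down in every pair at 6 genes, and the points of *Neurog1* replicates 2 and 3 coincide at the full window.

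Same-numbered replicates of H3K27me3 deviated from their condition means together, so the samples were also compared as pairs. Replicates 2 and 3 also deviated together across numbers, so their pairing is less certain than that of number 1. In the paired comparison each 4-OHT replicate was below its same-numbered control at 6 of the 8 genes (*Neurog2*, *Neurog3*, *Neurod1*, *Atoh1*, *Olig2* and *Sox1*), where 44.1% of the 4205 genes were so. That share includes genes with no region in some control list, which cannot be lower in every pair, and was not matched by domain size. The paired count was not made with lengths scaled to the list totals. A paired sign-flip test of 3 pairs has a smallest two-sided p of 0.25, which these 6 genes reached. Across all 4205 genes, limma called 0% lower after 4-OHT, that is 0 genes at an adjusted p of 0.05 (296 lower and 7 higher at an unadjusted p of 0.05), and 0.0238%, that is 1 gene, with the replicate block (1031 lower and 11 higher unadjusted). None of the 8 genes was called by limma in either fit. With the block, *Olig2* differed by -2.07 kb ± 0.399 (SE, adjusted p = 0.105 by limma with Benjamini-Hochberg adjustment), *Neurod1* by -0.917 kb ± 0.233 (adjusted p = 0.122) and *Neurog3* by -1.57 kb ± 0.377 (adjusted p = 0.122).

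The median ratio over the 7 genes was 0.893, where the median over the 2650 genes with H3K27me3 in every control list was 0.702. Scaled to the list totals, the median over the 7 genes was 1.28, and it was 1.03 without 4-OHT replicate 1, so its direction depends on these choices. Without replicate number 1 in both conditions it was 0.882. The ratio went with domain size in these data, since it was 0.885 over the 352 genes with a control mean of at least 5000 bp and 0.660 over the 2298 others. Within these wide classes, *Sox1* lay above 96.0% of the 352, *Neurog2* above 77.6%, *Neurog1* above 71.0%, *Atoh1* above 54.0% and *Neurog3* above 20.2%. Size was not matched further within a class, and the control means of *Sox1* and *Neurog1* were 8689 and 9442 bp of the 10 kb window. *Neurod1* and *Olig2* lay above 39.5% and 32.8% of the 2298 genes with smaller domains. The 5 of the 8 genes with a control mean of at least 5000 bp had a median ratio of 0.920, beside the 0.885 of the 352.

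**Figure D4:**
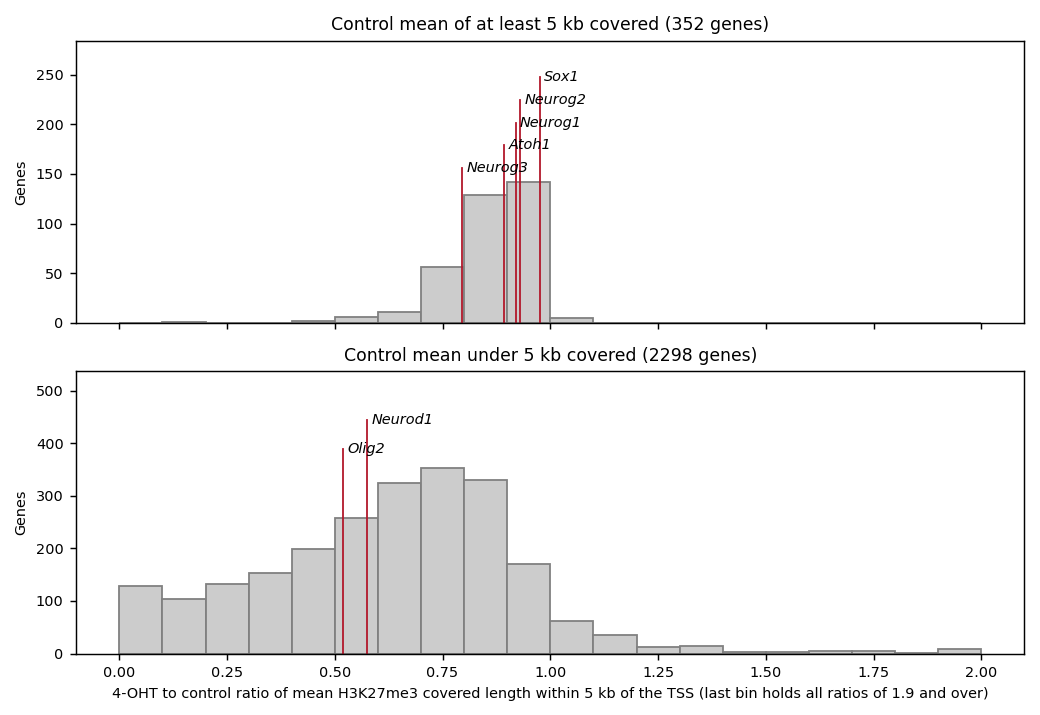
Distribution over genes of the 4-OHT to control ratio of mean H3K27me3 covered length within 5 kb of the TSS, for genes with a control mean of at least 5000 bp (top, 352 genes) and under it (bottom, 2298 genes), with the 7 genes marked by red lines. Most genes of both panels lie below 1, *Sox1* lies at the right of the top panel and *Olig2* and *Neurod1* lie left of the tallest bin in the bottom panel.

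Outside the 10 kb window, in a stretch chosen after the windows of 5 and 50 kb had been seen, the genes differed from one another. *Neurod1* had no H3K27me3 from 5 to 50 kb on either side of the TSS in any list. Of the other 7 genes, every 4-OHT replicate was below every control replicate at 4 of 7 (*Neurog1*, *Neurog2*, *Neurog3* and *Atoh1*), against 16.3% of the 6350 genes with any region there. When scaled to the list totals this held for *Neurog1* alone. At *Neurog1* the outer stretch had 24650, 26350 and 20100 bp in control and 6025, 15525 and 12900 bp in 4-OHT replicates, a ratio of 0.485, with means of 23700.0 bp ± 3231 and 11483 bp ± 4906 (SD, n = 3 each; exact permutation p = 0.1). At *Neurog2* the control lists had 8847, 10350 and 9075 bp and the 4-OHT lists 5300, 7900 and 5572 bp, a ratio of 0.664 (exact permutation p = 0.1). At *Atoh1* it had 5636, 4586 and 4136 bp and then 3375, 2911 and 2936 bp, a ratio of 0.642 (exact permutation p = 0.1). *Neurog3* had little mark there, with 1750, 962 and 837 bp in the control lists and 75, 687 and 762 bp in the 4-OHT lists, a ratio of 0.429 (exact permutation p = 0.1). *Olig2* had 1650, 3044 and 1900 bp in the control lists and 1150, 2825 and 1800 bp in the 4-OHT lists, a ratio of 0.876 with overlapping groups (exact permutation p = 0.6), nearer to 1 than its 0.518 within 5 kb. The *Olig1* stretch, which holds the *Olig2* domain, had a ratio of 0.547, also with overlap (exact permutation p = 0.4). *Sox1*, with 12332, 19725 and 18775 bp in the control lists and 10107, 18475 and 17675 bp in the 4-OHT lists, had a ratio of 0.910 and overlapping groups (exact permutation p = 0.5). Over the 3758 genes with a region there in every control list the median ratio was 0.621, so the ratios of *Neurog2* and *Atoh1* were close to it, those of *Neurog1*, *Neurog3* and *Olig1* were lower, and those of *Sox1* and *Olig2* higher. In the paired comparison each 4-OHT replicate was below its same-numbered control at 7 of 7 genes in this stretch, against 46.4% of the 6350. The 6350 were not limited to genes with a region there in every control list.

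Over the whole 100 kb all 8 genes were lower in every pair of same-numbered lists. Within 50 kb of the TSS every 4-OHT replicate was below every control replicate at 3 of 8 genes (*Neurog1*, *Neurod1* and *Atoh1*), against 15.5% of the 8534 genes tested, and each was below its same-numbered control at 8 of 8, against 48.8%. Neither share was limited to genes with a region in every control list. *Neurog1* went from 33142 bp ± 3128 to 20167 bp ± 7129 (SD, n = 3 each), a ratio of 0.608 (exact permutation p = 0.1). The *Olig1* window holds the *Olig2* domain, so the pair of genes shared regions in it and are not independent. The count of 3 became 6 without control replicate 1 (*Neurog2*, *Neurog3* and *Sox1* added) and 6 without 4-OHT replicate 2 (*Neurog2*, *Olig1* and *Olig2* added), and 0 when scaled to the list totals. Around *Neurog1* some outer regions lay over the lincRNA 4930550C17Rik, downstream, some over *Cxcl14*, a chemokine gene upstream, whose TSS lies at -44388 bp from that of *Neurog1*, and others over neither. The widest downstream region, 5575 bp from 27399 bp after the TSS in control replicate 2 and 5225 bp in control replicate 3, was 4500 bp wide in 4-OHT replicate 2 and 3975 bp wide in 4-OHT replicate 3. Regions of 2175 and 2275 bp, starting 38374 and 38949 bp after the TSS in control replicates 1 and 2, had no counterpart in any 4-OHT list. In replicate 1, control regions of 875, 900 and 2075 bp held pieces of 250 and 225, of 625 and of 125 bp after 4-OHT.

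Inside the genes themselves, from first to last annotated base, *Neurod1* and *Olig2* again had the smallest ratios. The 1659 bp of *Neurog1* were covered whole by H3K27me3 in replicates 2 and 3 of both conditions and to 685 and 660 bp in control and 4-OHT replicate 1. *Sox1*, of 4037 bp, had 1730, 4037 and 4037 bp in control and 1680, 4005 and 3930 bp in 4-OHT replicates (exact permutation p = 0.5). The 4231 bp of *Neurod1* carried 850, 1975 and 1500 bp and, after 4-OHT, 175, 1075 and 650 bp, a ratio of 0.439 (exact permutation p = 0.2). *Olig2*, of 3128 bp, had 525, 2850 and 950 bp and then 50, 1525 and 25 bp, a ratio of 0.370 (exact permutation p = 0.5). At the other 3 marked genes, *Neurog2*, *Neurog3* and *Atoh1*, the ratios were 0.940, 0.952 and 0.955. The H3K27me3 replicates of the 2 conditions overlapped at all 7 genes. Suz12 covered the whole of *Sox1* in all 4 lists. Over *Neurog2*, of 2496 bp, the control lists had 2022 and 2422 bp of Suz12 and the 4-OHT lists 1447 and 1597 bp, a ratio of 0.685. Within that gene the last covered position lay 2347 and 2422 bp after the TSS in control replicates 1 and 2, and 1447 and 1597 bp after it in 4-OHT replicates 1 and 2. *Neurog3* was also lower in both 4-OHT lists, with 1213 bp in each against 1349 and 1674 bp, whereas *Atoh1* was higher, with 2088 bp, the whole gene, in each 4-OHT list against 1902 and 2027 bp in the control lists (exact permutation p = 0.33 for each of these 3 genes, the smallest that 2 against 2 allows).

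The second comparison asked whether Suz12 itself was displaced. Suz12 coverage within 5 kb of the TSS stayed within 0.863 to 1.06 times control at the 6 genes. It was lower in both 4-OHT replicates than in both control replicates at 3 of the 7 genes with any Suz12 region (*Neurog2*, *Neurog3* and *Olig2*), against 5.76% of the 2291 genes tested, and higher in both at 0 of 7, against 32.1%. *Sox1* filled the window in all 4 lists, so it lost no covered length there, and a gain could not have shown. With 2 replicates against 2 the smallest two-sided p of the exact permutation test is 0.33, so these are descriptions of 4 lists. At *Neurog2* the control lists had 6547 and 7047 bp of Suz12 and the 4-OHT lists 5575 and 6222 bp, a ratio of 0.868. At *Neurog3* the control lists had 5125 and 4875 bp and the 4-OHT lists 4150 and 4475 bp, a ratio of 0.863. At *Olig2* they were 4300 and 4350 bp and then 4125 and 4100 bp, a ratio of 0.951. The differences at *Neurog2* and *Neurog3* were larger than the spread within either condition, and at *Olig2* both spreads were small. *Neurog1* had 2700 and 3525 bp of Suz12 without and 2848 and 3498 bp with 4-OHT, and *Atoh1* had 3839 and 5489 bp and then 3739 and 6139 bp, in both cases with overlap. *Neurod1* had no Suz12 region in any list within 5 kb, and *Olig1* had 25 bp in control replicate 1 and 375 bp in 4-OHT replicate 2 only. The median ratio over the 6 genes was 0.975, below the median of 1.06 over the 1351 genes with Suz12 in both control lists. That median and the shares above were not matched to these genes by Suz12 domain size. The 5 genes nearest in pattern, named below, were picked by covered lengths that included these 4 Suz12 lists. Their Suz12 values are therefore a description and not an independent comparison. Mean Suz12 was lower after 4-OHT at *Lhx6* (4287.5 and 4200 bp) and *Bsx* (4496.5 and 4209 bp). It was lower at *Pax5* (4412.5 and 4175 bp) and *Barhl1* (3738 and 3538 bp) and higher at *Alx4* (4740 and 5065 bp). The sum over the 4-OHT Suz12 lists was 1.08 times that over the control lists.

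**Figure D5:**
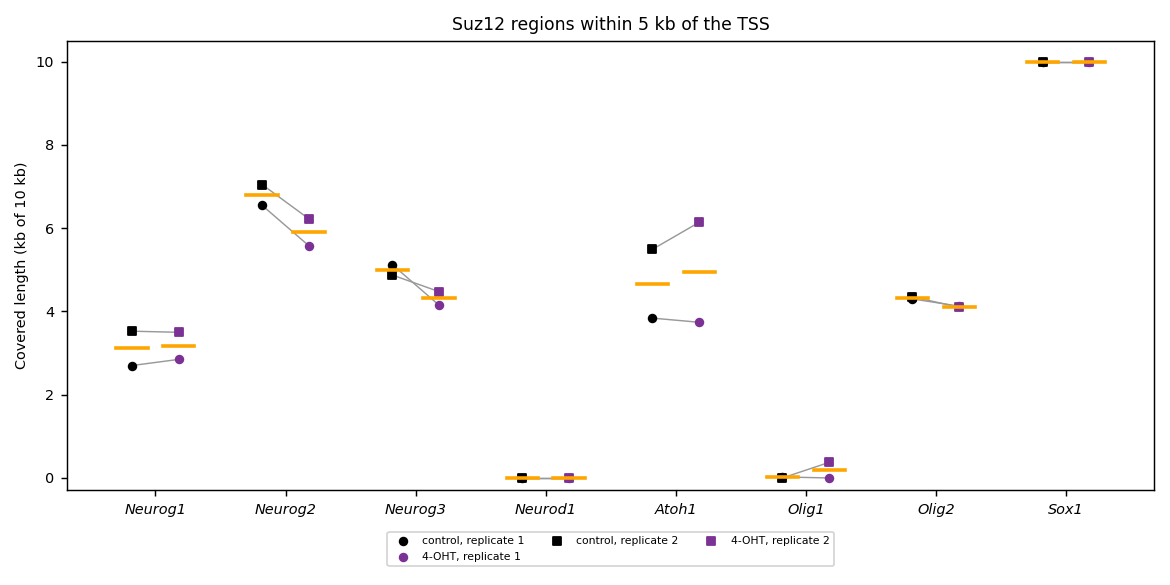
Suz12 covered length within 5 kb of the TSS, in kb of the 10 kb window, for each replicate, with lines joining same-numbered replicates and orange bars at the means. *Sox1* is at 10 kb in all 4 lists, *Neurog2*, *Neurog3* and *Olig2* lie lower in both 4-OHT lists, and *Neurod1* is at 0.

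The third comparison asked whether the active mark appeared at these genes once *Brg1* was deleted. H3K27ac was called within 5 kb of the TSS in both 4-OHT replicates at 1 of the 8 genes, *Neurod1*, against 48.2% of all genes. Its regions measured 550 and 350 bp in 4-OHT replicates 1 and 2, against none in either control list. *Neurod1* was the 1 gene of the 8 with any H3K27ac region in the window. Its regions were in 4-OHT lists only, so the comparison could not have come out lower (exact permutation p = 0.33, the smallest that 2 against 2 allows). Over the 12030 genes tested, 39.8% were higher in both 4-OHT lists. That share counts any increase, and 10669 genes already had a region in both control lists. The share of genes that had no control region and 1 in both 4-OHT lists was not computed. The regions, chr2:79294626-79295175 and chr2:79294576-79294925, shared the 300 bp printed above and lay 1733 to 2333 bp after the TSS, in the *Neurod1* coding exon. The position is also inside the *Cerkl* gene, whose annotated TSS lies 34 bp upstream of that of *Neurod1* on the same strand, and inside the lincRNA Gm17325 on the opposite strand, so the regions cannot be assigned to one of the 3 genes from position alone. *Neurod1* was also the gene with H3K27me3 but no Suz12 and the gene whose H3K27me3 replicates did not overlap. None of the H3K27ac stretch shared by both lists lay inside H3K27me3 called in at least 2 of 3 4-OHT lists.

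Beyond the promoters, 3 of the 8 genes had an H3K27ac region within 50 kb of the TSS in both control replicates, against 70.8% of all genes. *Olig1* and *Olig2* shared 1 intergenic region between them, chr16:91255976-91256900 in both control lists, with its edges at -14038 and -13113 bp from the *Olig1* TSS and at 30181 and 31106 bp from the *Olig2* TSS. It was 925 bp wide in both control and 750 and 800 bp wide in the 4-OHT lists. *Sox1* had 1 narrow region 43907 bp after its TSS, 200 and 225 bp wide in control replicates 1 and 2 and not called in either 4-OHT list. The *Olig* region thus remained in all 4 lists while the *Sox1* region was called in control only, and neither difference could pass a test with 2 replicates against 2 (exact permutation p = 0.33 each).

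FLAG regions, which mark Brg1 binding, were sparse around these genes. The study's text calls its FLAG enrichment modest and its bound regions a conservative estimate. A missing region therefore does not show that Brg1 was absent. Within 50 kb of the TSS, 1 of the 8 genes had a FLAG region in at least 1 replicate, against 38.1% of all genes. It was *Neurog1*, with an intergenic region of 75 bp in replicate 1, chr13:56311451-56311525, contained in 1 of 150 bp in replicate 2, and 2 further regions of 200 and 50 bp in replicate 2. All lay 41949 to 43799 bp downstream of the TSS, and replicate 3, with its few regions, had none. H3K27ac in control replicate 2 had 1 region of 25 bp inside the widest of these FLAG regions and none in the other 3 lists.

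The same measures were taken at related genes outside the 8. Of 17 related neural bHLH and Sox genes, 14 had H3K27me3 in every control list, and 15 had the mark in at least 1 list of either condition. Every 4-OHT replicate was below every control replicate at 3 of these 15, *Ascl2*, *Sox2* and *Sox3*, where 12% of all genes with the mark were so. The median ratio over the 14 was 0.828. *Sox2* and *Sox3*, the SoxB1 relatives of *Sox1*, had ratios of 0.252 and 0.153, from control means of 3975 and 2717 bp to 4-OHT means of 1000.3 and 417 bp, whereas *Sox1* was at 0.975. *Sox2*, which is active in stem cells and neural progenitors, differed from *Sox1* also in having H3K27ac, which was higher in both 4-OHT lists than in both control lists. The test of a difference between *Sox1* and these relatives was not made. *Neurod2* and *Olig3*, which are relatives of the 8 genes, had ratios of 0.907 and 0.897.

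Among all other genes, those nearest to the median pattern of the 8 genes over the 17 lists, by Euclidean distance of covered lengths within 5 kb of the TSS, all homeodomain or paired-box transcription factor genes, were *Lhx6* at 1364 bp, *Bsx* at 1476 bp, *Pax5* at 1590 bp, *Barhl1* at 1681 bp and *Alx4* at 1899 bp. Of the 8 genes themselves, *Neurog3* lay at 2521 bp and *Atoh1* at 3062 bp from that median, whereas *Sox1*, *Neurod1* and *Olig1* lay at 12775, 14831 and 17879 bp.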

How the data were processed

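Mouse mesodermal cultures were profiled by ChIP-seq in 28 samples, of which 11 were inputs. The authors aligned reads to mm9 with Bowtie, as the processing notes name them, and called enriched regions in each replicate over input with a Poissonian model. The deposited values are only the chromosome, start and end of each region in 17 lists, so depth, counts and strength are unknown and a region lost cannot be told apart from a region that just missed the threshold. Gene positions came from GENCODE vM1 (mm9), and promoter sequences from RefSeq (GRCm38.p6 table), of which 7 of 8 genes had an entry, each matching mm9 once.

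Covered bp within 5 kb of the TSS, in the gene body and within 50 kb were computed per list. Replicates, which the labels call biological, were compared by two-sided exact permutation tests, and H3K27me3 also by limma 3.58.1 (R 4.3.3) on covered kb, with and without replicate number as a block. The numbers pair the H3K27me3 samples as judged from the lists: deviations of same-numbered lists correlated at 0.908, 0.819 and 0.763 over 4205 genes. Control 2 with 4-OHT 3 also correlated at 0.583, and control 3 with 4-OHT 2 at 0.648, so the pairing of numbers 2 and 3 is less certain. Same-numbered lists correlated at 0.505 for Suz12 and 0.440 for H3K27ac, where 2 pairs are too few to decide. Scripts (Python 3.11.15, numpy 2.4.6, matplotlib 3.10.9) were tested on simulated data. The 8 genes, the related list and the markers were chosen with earlier results of these data known. Named are the 8 genes, some of the genes within 50 kb that share their regions, the 5 genes nearest in pattern to the median of the 8, and examples from the lists. Alternatives were other windows, transcript starts, scaling, joining and width filters, equal region numbers and each replicate left out.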

Additional observations from a re-analysis of the deposited data

How the results depend on the processing

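All values here rest on where regions were called, and a covered window cannot show a gain. *Neurod1*, the 1 gene with every 4-OHT H3K27me3 replicate below every control replicate within 5 kb, was also the 1 under windows of 2.5 kb, every annotated transcript start and equal region numbers. The count was 0 with windows of 1 kb, with covered length scaled to the list total, with regions joined within 1 kb and with regions of at least 500 bp, 4 without replicate number 1 in both conditions, and 1 to 4 with single replicates left out (4 without control replicate 1). In the paired comparison, with the replicate as a block, it was 6 of 8 within 5 kb, 8 of 8 within 50 kb and 7 of 7 from 5 to 50 kb, and the paired median ratios were 0.896, 0.663 and, for Suz12, 0.976. Within 50 kb the count of 3 ranged from 3 to 6 with single replicates left out and was 6 without number 1. From 5 to 50 kb the count of 4 was 1 when scaled to the list total, 2 when joined and 2 for wider regions. Leaving out number 1 in both conditions and the counts within 50 kb and from 5 to 50 kb were chosen after the data were seen.

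The median H3K27me3 ratio of 0.893 within 5 kb was 1.28 when scaled to the list total and ranged from 0.813 to 1.03 with single replicates left out, reversing without 4-OHT replicate 1. It was 0.882 without number 1 in both conditions. Within 50 kb, 0.747 became 0.979 when scaled. The Suz12 ratio of 0.975 was 1.05 within 1 kb and ranged from 0.873 to 0.978 with single replicates left out. *Neurod1* as the 1 gene with H3K27ac after 4-OHT was lost, giving 0, within 1 kb and with regions of at least 500 bp. The causes were not tested.

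Scaled to the list total, the H3K27me3 difference reversed to 268 bp per Mb at *Neurog1*, 265 at *Neurog2*, 43.6 at *Neurog3*, 179 at *Atoh1* and 336 at *Sox1*, and at *Neurog2* to 41.7 bp within 1 kb. With single replicates left out it ranged from -1417 to 558 bp at *Neurog1*, from -1453 to 396 bp at *Neurog2*, from -2913 to 234 bp at *Neurog3*, from -37.5 to 288 bp at *Olig1* and from -1352 to 886 bp at *Sox1*, and it stayed negative at *Neurod1*, *Atoh1* and *Olig2*.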
